A study of Homo sapiens with 6 samples.

Results

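MicroRNA and small nucleolar RNA (snoRNA) host genes are long non-coding genes named for the short RNAs that are cut out of their transcripts. They were taken from the gene table by symbol, as genes named MIR with a number or name and the ending HG, genes named SNHG with a number, and GAS5. This gave 86 of 46427 genes, of which 57 were microRNA hosts and 29 were snoRNA hosts. RNA came from MDA-MB-231 cells, a single established human breast cancer cell line grown in low glucose DMEM, labelled as epithelial breast cancer cells. The 3 control-siRNA libraries carry the genotype label WT, and the 3 TAZ-siRNA libraries carry the label TAZ knockdown. The TAZ-siRNA was a siGENOME reagent against WWTR1, the gene that encodes the Hippo pathway coactivator TAZ, and was delivered with DharmaFECT4. Replicates are numbered 1 to 3 as in the sample descriptions, where the sample titles number the same libraries 3 to 5. Each group held 3 separate cell preparations, so the spread is between preparations of 1 line and not between lines.

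A snoRNA is released from an intron of its host after splicing and then guides the chemical modification or cleavage of ribosomal RNA, or of spliceosomal RNA for the related small Cajal body RNAs. The spliced exons that remain often carry no conserved protein, are engaged by ribosomes and are degraded by nonsense-mediated decay. A microRNA is instead cut from the host transcript by Drosha and DGCR8, trimmed by Dicer and loaded onto an Argonaute protein, where its seed (bases 2 to 8) pairs with target mRNAs. The libraries were made from mRNA, so the values are those of the host RNA and not of the mature small RNA, and production and decay of a host RNA cannot be told apart.

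The mature microRNAs of the main hosts found in these cells are shown because the hosts form groups that share a seed. The sequences are from RefSeq on GRCh38.p14, and capitals mark the seed.
miR-503-5p, from MIR503HG (chrX:134546371-134546393, minus strand): uAGCAGCGggaacaguucugcag
miR-22-3p, from MIR22HG (chr17:1713914-1713935, minus strand): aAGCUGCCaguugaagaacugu
miR-3681-5p, from MIR3681HG (chr2:12199138-12199159, plus strand): uAGUGGAUgaugcacucugugc
miR-100-5p, from MIR100HG (chr11:122152275-122152296, minus strand): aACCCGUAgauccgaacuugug
miR-99a-5p, from MIR99AHG (chr21:16539101-16539122, plus strand): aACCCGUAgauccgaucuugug
let-7a-5p, from MIR100HG (chr11:122146568-122146589, minus strand) and from MIRLET7BHG: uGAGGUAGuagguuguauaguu
let-7c-5p, from MIR99AHG (chr21:16539838-16539859, plus strand): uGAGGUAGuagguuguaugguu
let-7b-5p, from MIRLET7BHG (chr22:46113691-46113712, plus strand): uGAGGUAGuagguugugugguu
miR-125b-5p, from MIR100HG (chr11:122099809-122099830, minus strand) and from MIR99AHG: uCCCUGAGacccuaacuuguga
miR-17-5p, from MIR17HG (chr13:91350618-91350640, plus strand): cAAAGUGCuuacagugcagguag
miR-20a-5p, from MIR17HG (chr13:91351072-91351094, plus strand): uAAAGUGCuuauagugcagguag
miR-19a-3p, from MIR17HG (chr13:91350939-91350961, plus strand): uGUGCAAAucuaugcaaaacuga
miR-210-3p, from MIR210HG (chr11:568112-568133, minus strand): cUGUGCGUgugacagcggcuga
MIR100HG and MIR99AHG each span a miR-100 family, a let-7 and a miR-125b microRNA, and MIRLET7BHG adds let-7 members with the same seed. The seed of miR-503-5p, the microRNA of the only microRNA host called below, was held by 1 mature name in the RefSeq table, against 11 names for the let-7 seed.

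For the snoRNA hosts, the first bases of the transcript are shown, because many hosts of this kind begin with an oligopyrimidine stretch like that of ribosomal protein mRNAs. Each line gives 5 bases before and 25 from the RefSeq start site on, and capitals mark the unbroken run of C and T that begins at the start site.
SNHG19 (chr16:2155334-2155363, minus strand): cctgtCTTTTCggggtcgagtccgaggggg
SNHG32 (chr6:31834911-31834940, plus strand): tagttCTTTTTgcgaagtgggctcgtgggt
SNHG5 (chr6:85678709-85678738, minus strand): tcggtCTTTTacgtcggccttcgcgagcgt
SNHG7 (chr9:136728160-136728189, minus strand): tcgtcCTCTgcgtgcgccggaggctgccgt
SNHG26 (chr7:22854235-22854264, plus strand): ttgatCTCCgcagtgccctcccttttcggc
SNHG1 (chr11:62855861-62855890, minus strand): tcgttCTCatttttctactgctcgtggtaa
SNHG8 (chr4:118278757-118278786, plus strand): cctttCacattcgggaagcgtcgggattag
SNHG16 (chr17:76557759-76557788, plus strand): gtctcgcgttcttttcgaggtcggccgcgt
A C at the start site followed by at least 4 bases that are each C or T, read on the strand of the gene, was found in 6 of 25 snoRNA hosts with an entry (24%), in 2 of 44 microRNA hosts (4.55%) and in 4.04% of 27305 genes in the promoter table. The same start was present in 40 of 65 ribosomal protein genes (61.5%). Among the snoRNA hosts called lower below, 3 of 13 with an entry held it, and SNHG1, SNHG8 and SNHG16 did not. RefSeq lists 1 start per gene here, and the table held an entry for 69 of the 86 hosts. For GAS5, SNHG4, SNHG12 and SNHG17 this start was not at the edge of the gene span in the deposited data. GAS5 was counted as without such a start and SNHG12 as with it.

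Total counts lay between 49662504 and 66769103 in the control-siRNA group and between 48307548 and 71749634 in the TAZ-siRNA group. Expression is given as CPM, which divides each count by the total of its library times edgeR's TMM factor, and 3 counts, taken as the floor of detection, correspond to 0.0411 to 0.0618 CPM, a limit that covers counting error only. WWTR1 had 192, 190 and 190 CPM with control-siRNA and 17.3, 17.0 and 15.1 CPM with TAZ-siRNA, a log2 change of -3.53 ± 0.0613 (SE). In both groups the counts of replicate 3 stood apart from those of the other libraries. The chi-square per degree of freedom was 30.3 and 41.0 for pairs with TAZ-siRNA replicate 3 against 11.7 between TAZ-siRNA replicates 1 and 2, and 21.9 and 19.8 for pairs with control-siRNA replicate 3 against 6.79 between control-siRNA replicates 1 and 2. The 5 markers of this cell type were all tested and none was called. VIM, CD44, KRT8 and KRT18 had 473 to 3734 CPM, but EPCAM had only 0.771 to 1.59 CPM. Of 3 genes listed as low or absent in this line ESR1 and PGR were never above 0.0895 CPM and ERBB2 had 44.9 to 62.6 CPM. Of 7 markers of other cell types CD3E and PTPRC were at 0 in all libraries, 3 passed the filter on low counts, PECAM1 had 4.15 to 6.29 CPM and was not called, and 1 was called, COL1A1, at 6.82 to 7.62 CPM in the control-siRNA group and 9.20 to 10.3 CPM in the other, and its part in the results was not tested.

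Both classes were expressed in the control-siRNA cells, but the snoRNA hosts were far more abundant. A mean of at least 1 CPM in the control-siRNA libraries was reached by 22 of 29 snoRNA hosts and 14 of 57 microRNA hosts. Together the snoRNA hosts had 1419, 1445 and 1542 CPM and the microRNA hosts 136, 138 and 132 CPM in the control-siRNA libraries. With TAZ-siRNA the snoRNA hosts had 1085, 1083 and 1275 CPM and the microRNA hosts 147, 135 and 151 CPM. For the snoRNA hosts the 2 groups of libraries thus did not overlap, and the mean fell from 1469 ± 64.6 to 1148 ± 111 CPM (SD, n = 3), or 78.1% of control-siRNA. For the microRNA hosts the groups overlapped on the CPM scale, with means of 135 ± 3.03 and 144 ± 8.19 CPM (SD, n = 3). On the deposited TPM scale, which also divides by transcript length, the sums with TAZ-siRNA were 81.8% of control-siRNA for snoRNA hosts and 112% for microRNA hosts. The groups did not overlap on that scale in either class. The microRNA hosts had 144, 142 and 135 TPM with control-siRNA and 162, 153 and 158 TPM with TAZ-siRNA. Single genes weighed on the sums, with control-siRNA means of 488 CPM for SNHG29 and 64.2 CPM for MIR100HG.

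The groups were compared with edgeR (quasi-likelihood test, Benjamini-Hochberg adjusted) across the 16966 genes that passed its filter on low counts, and a gene was called at an adjusted p under 0.05. The filter was passed by 46 hosts, 25 of the snoRNA class and 21 of the microRNA class. Among all genes tested 22.1% were called, 10.2% lower and 11.9% higher with TAZ-siRNA. Of the 25 snoRNA hosts, 15 were lower and 0 higher. At an unadjusted p under 0.05, 18 snoRNA hosts passed, as did 6069 of the 16966 genes tested. DESeq2 called 16 snoRNA hosts lower and 0 higher, and its share over all genes is not given here. Of the 21 microRNA hosts, 1 was lower and 0 higher, with 2 past an unadjusted p under 0.05 and the same numbers of calls by DESeq2.

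The log2 change was below 0 in 23 of 25 snoRNA hosts, with a median of -0.35, against a median of -0.01 over all genes and -0.07 over 2159 lncRNA genes tested, of which 6.3% were called lower. In 17 snoRNA hosts the highest TAZ-siRNA value was under the lowest control-siRNA value, which was the case for 19.6% of all genes tested. Among the microRNA hosts 11 of 21 had a log2 change below 0, the median was -0.01 and the groups were separated in this way in 1 host. The smaller number of counts behind most microRNA hosts gave wider errors, so the absence of calls does not show that their levels were equal.

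**Figure D1:**
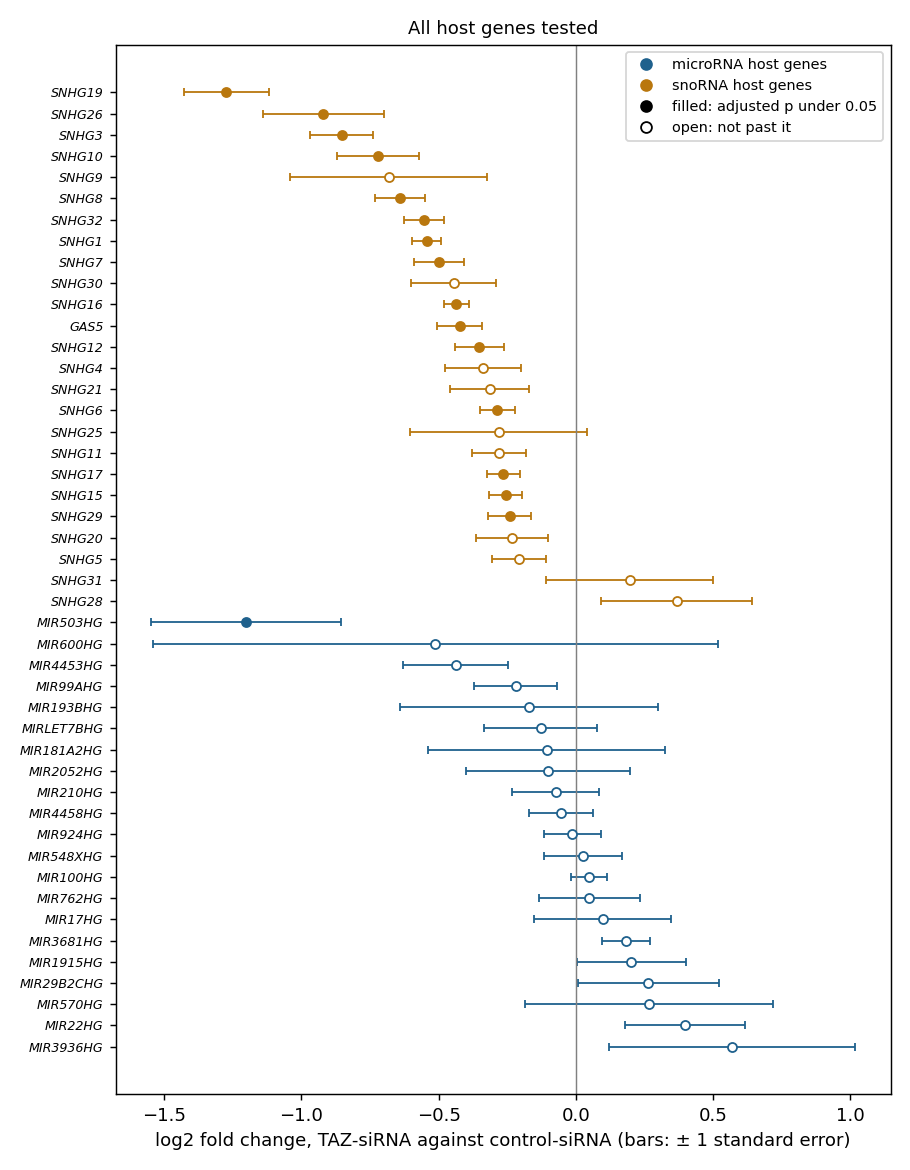
The log2 fold change of each of the 46 host genes tested, with bars of 1 standard error (edgeR, 3 libraries per group) and filled points for an adjusted p under 0.05. Of the 25 snoRNA hosts 23 lie left of 0 and 15 are filled, while the 21 microRNA hosts lie on both sides and 1 is filled.

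The snoRNA hosts with the highest levels per transcript length were SNHG29, SNHG5 and GAS5. SNHG29, which holds SNORD49A, SNORD49B and SNORD65, reached 996 ± 36.8 TPM with control-siRNA (SD, n = 3). GAS5, whose transcript accumulates in growth-arrested cells and binds the glucocorticoid receptor, had 631 ± 19.8 TPM, and SNHG5, the host of SNORD50A and SNORD50B, had 611 ± 25.1 TPM. The levels of GAS5 and SNHG5 differed by less than their spread. SNHG32 followed at 324 ± 7.38 TPM and SNHG6 at 187 ± 2.22 TPM. SNHG8 and SNHG1 then had 156 ± 6.24 and 156 ± 1.02 TPM, again within their spread, and SNHG16 had 131 ± 1.22 TPM.

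The largest fall among the called snoRNA hosts was that of SNHG19 (chr16:2154782-2155358), a short gene that holds SNORD60. SNHG19 had 3.01, 3.92 and 3.95 CPM with control-siRNA and 1.51, 1.44 and 1.54 CPM with TAZ-siRNA. It was 41.2% of control-siRNA, a log2 change of -1.27 ± 0.155 (SE, edgeR adjusted p = 0.00046), and was the only called snoRNA host to fall by at least 2-fold.

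SNHG3 (chr1:28505943-28510892) holds SNORA73A and SNORA73B, the copies of U17, which takes part in the cleavage of the precursor of 18S ribosomal RNA. SNHG3 had 39.2, 37.8 and 40.9 CPM with control-siRNA and 21.4, 17.7 and 26.0 CPM with TAZ-siRNA. The groups were well apart, with a log2 change of -0.85 ± 0.115 (SE, edgeR adjusted p = 0.00115). RCC1, a protein-coding gene that overlaps SNHG3 on the same strand and was lower with TAZ-siRNA by a smaller amount (log2 change -0.24), may share reads with it, so the value of SNHG3 is uncertain to that extent.

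SNHG8, the host of SNORA24, had 34.4, 33.1 and 35.3 CPM with control-siRNA and 19.8, 20.4 and 25.8 CPM with TAZ-siRNA. Its log2 change was -0.64 ± 0.0922 (SE, edgeR adjusted p = 0.00116), and the nearest values of the groups were still far apart. SNHG10, the host of the Cajal body RNA SCARNA13, fell from 4.56, 4.03 and 3.34 CPM to 2.15, 2.47 and 2.65 CPM. Its log2 change was -0.72 ± 0.150 (SE, edgeR adjusted p = 0.00733). SNHG26, the host of SNORD93, was a low host with 1.00, 1.30 and 1.13 CPM against 0.713, 0.547 and 0.537 CPM. It fell by 0.92 on the log2 scale (SE 0.221, edgeR adjusted p = 0.0144), and without control-siRNA replicate 2 it had a log2 change of -0.82 and was not called.

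SNHG1, SNHG32 and SNHG16 were also lower. SNHG1 (chr11:62851978-62855885), whose introns hold SNORD22 and SNORD25 to SNORD31, had 82.7, 84.6 and 84.1 CPM with control-siRNA and 56.7, 54.5 and 61.2 CPM with TAZ-siRNA. The control-siRNA values spread little, and the log2 change was -0.54 ± 0.0539 (SE, edgeR adjusted p = 0.000179). SNHG32, in the major histocompatibility complex class III region and host of SNORD48 and SNORD52, had 108, 111 and 118 CPM against 71.6, 72.5 and 86.2 CPM, a log2 change of -0.55 ± 0.0720 (SE, edgeR adjusted p = 0.000644). SNHG16, with SNORD1A, SNORD1B and SNORD1C, had 148, 151 and 155 CPM against 111, 111 and 114 CPM. For SNHG16 the TAZ-siRNA libraries lay close together, and the log2 change was -0.44 ± 0.0449 (SE, edgeR adjusted p = 0.000201).

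GAS5 (chr1:173863899-173868882) had 171, 181 and 191 CPM with control-siRNA and 127, 124 and 154 CPM with TAZ-siRNA. Its log2 change was -0.42 ± 0.0815 (SE, edgeR adjusted p = 0.00536), with TAZ-siRNA replicate 3 nearest to the controls. SNHG7, with SNORA17A and SNORA17B, had 39.5, 41.9 and 43.1 CPM against 27.4, 26.4 and 34.3 CPM, and a log2 change of -0.50 ± 0.0918 (SE, edgeR adjusted p = 0.00422). DIPK1B, which overlaps SNHG7 on the other strand, was higher with TAZ-siRNA.

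**Figure D2:**
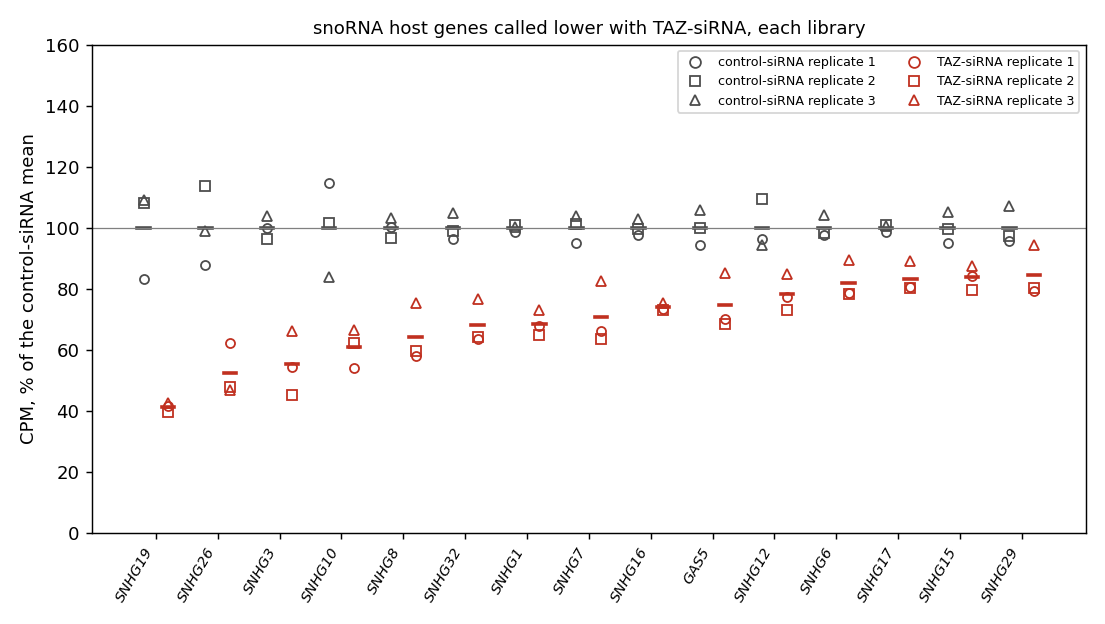
CPM of the 15 snoRNA hosts called lower, each library as a percent of the mean of the 3 control-siRNA libraries, with short lines at the group means. Every TAZ-siRNA point lies below every control-siRNA point of the same gene, and TAZ-siRNA replicate 3 (triangles) is the highest TAZ-siRNA library in 14 of the 15. Control-siRNA replicate 3 is likewise the highest control-siRNA library in GAS5, SNHG32 and SNHG29, among others, but not in SNHG1 or SNHG10.

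The remaining 5 calls were smaller. SNHG12, with SNORA16A, SNORA44, SNORA61 and SNORD99, fell by 0.35 on the log2 scale (edgeR adjusted p = 0.0182). SNHG6, SNHG17 and SNHG15 fell by 0.29, 0.26 and 0.26 on the log2 scale, with edgeR adjusted p values of 0.00962, 0.0106 and 0.0142. These hosts had 82.0%, 83.3% and 83.7% of their control-siRNA means. SNHG29, the most abundant host, had 467, 475 and 523 CPM with control-siRNA and 388, 392 and 461 CPM with TAZ-siRNA, so the groups were separated by a narrow margin. Its log2 change was -0.24 ± 0.0777 (SE, edgeR adjusted p = 0.0483).

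These smaller calls depended on single libraries. SNHG29 was called without TAZ-siRNA replicate 3 and in no other fit that left out a library, where its log2 change was -0.19 to -0.27. Calls were lost without TAZ-siRNA replicate 1 for SNHG12 (-0.34), SNHG15 (-0.26), SNHG17 (-0.24) and SNHG6 (-0.25), and without TAZ-siRNA replicate 2 for SNHG12 (-0.30) and SNHG15 (-0.22). They were also lost without control-siRNA replicate 2 for SNHG12 (-0.28), SNHG15 (-0.26) and SNHG17 (-0.26), and without control-siRNA replicate 3 for SNHG15 (-0.22) and SNHG6 (-0.26). Beside these 5 hosts and SNHG26, the other 9 called snoRNA hosts passed in all 6 fits that left out a library.

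Of the 10 snoRNA hosts that were tested and not called, 8 had a log2 change below 0, with adjusted p values that did not pass. SNHG5 had 144, 134 and 151 CPM with control-siRNA and 111, 114 and 146 CPM with TAZ-siRNA, so that TAZ-siRNA replicate 3 lay within the control range. Its log2 change was -0.21 ± 0.0977 (SE, edgeR adjusted p = 0.162), and -0.34 without TAZ-siRNA replicate 3, where it was called. SNHG11 and SNHG30 had log2 changes of -0.28 and -0.45 (edgeR adjusted p = 0.066 and 0.0616), and were also called without that library, at -0.34 and -0.63. SNHG4 (-0.34), SNHG21 (-0.31) and SNHG20 (-0.23) did not pass, and SNHG4 was called without TAZ-siRNA replicate 2 (-0.48). SNHG28, for which no snoRNA was found within its span, had a log2 change of 0.37 ± 0.274 (SE, edgeR adjusted p = 0.37). Below 1 CPM, SNHG9, SNHG25 and SNHG31 had log2 changes of -0.68, -0.28 and 0.20 and did not pass. SNHG14, SNHG22 and SNHG27 had at most 10 counts in a library and SNHG18 had none.

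Without TAZ-siRNA replicate 3, 18 of 25 snoRNA hosts were lower, where 16.1% of 17585 genes tested were called lower, and their median log2 change was -0.44. Without control-siRNA replicate 3 it was 12 of 25, and without any other single library 10 to 14 were lower. The share of all genes called lower in these other fits is not given here, and calls in other sets also moved, as given below. In every such fit 23 of 25 snoRNA hosts had a log2 change below 0. The fall was seen across the kinds of small RNA. Of hosts of C/D box snoRNAs alone, which guide methylation of ribose, 7 of 10 were lower (median log2 change -0.44), and of hosts of H/ACA box snoRNAs alone, which guide pseudouridylation, 5 of 9 were lower (median -0.34). GAS5 and SNHG12, with snoRNAs of both kinds, were both lower, as was 1 of 3 hosts of small Cajal body RNAs.

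**Figure D3:**
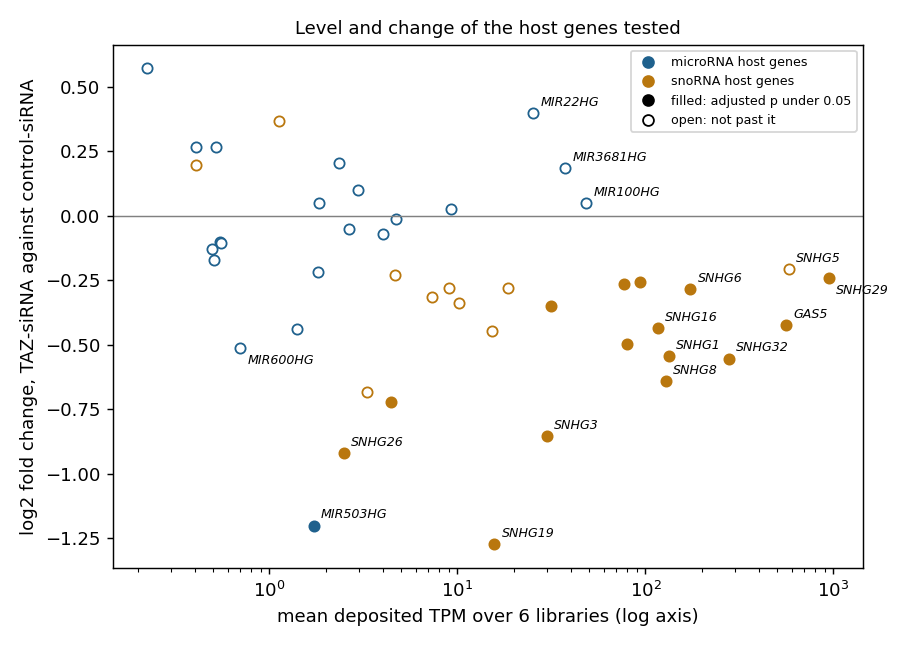
Mean deposited TPM over the 6 libraries (log axis) against the log2 fold change with TAZ-siRNA for the 46 hosts tested, filled where the edgeR adjusted p is under 0.05. Above 50 TPM all hosts are of the snoRNA class and lie below 0, and SNHG5 is the only open point among them.

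Among the microRNA hosts, MIR503HG (chrX:134543377-134546630), the host of miR-503, was the only one called. MIR503HG had 80, 47 and 31 counts with control-siRNA and 34, 22 and 12 counts with TAZ-siRNA, or 1.20, 0.755 and 0.638 CPM against 0.466, 0.446 and 0.215 CPM. The groups did not overlap, but the gap between them was smaller than the range of the control-siRNA values. The log2 change was -1.20 ± 0.347 (SE, edgeR adjusted p = 0.0316). Its mean with control-siRNA, 0.864 CPM, was under the limit used here for expression. The call was lost without control-siRNA replicate 1 (-0.88), control-siRNA replicate 2 (-1.30), TAZ-siRNA replicate 1 (-1.41) or TAZ-siRNA replicate 2 (-1.31).

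The microRNA hosts with the highest levels per transcript length were MIR100HG, MIR3681HG and MIR22HG. MIR100HG, whose microRNAs are shown above, had 46.6 ± 3.01 TPM with control-siRNA (SD, n = 3). MIR3681HG followed at 34.1 ± 0.960 TPM and MIR22HG at 21.3 ± 1.49 TPM, so these levels were apart by more than their spread. MIR548XHG was next at 9.02 ± 1.17 TPM, then MIR924HG at 4.65 ± 0.137 TPM and MIR210HG, a host induced by hypoxia, at 4.05 ± 0.587 TPM. The last of these steps was within the spread.

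MIR100HG had 65.3, 66.2 and 61.2 CPM with control-siRNA and 71.6, 60.7 and 66.9 CPM with TAZ-siRNA. Its groups overlapped, and its log2 change of 0.05 ± 0.0654 (SE, edgeR adjusted p = 0.641) was the most precise of the class. MIR22HG, the host of miR-22, had 21.4, 23.4 and 25.3 CPM against 30.1, 21.9 and 40.3 CPM. The TAZ-siRNA libraries thus ranged from within the control values to well above them, with a log2 change of 0.40 ± 0.219 (SE, edgeR adjusted p = 0.256). Without TAZ-siRNA replicate 2 it was 0.59 and MIR22HG was called higher. MIR3681HG had a log2 change of 0.18 ± 0.0868 (SE, edgeR adjusted p = 0.157).

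**Figure D4:**
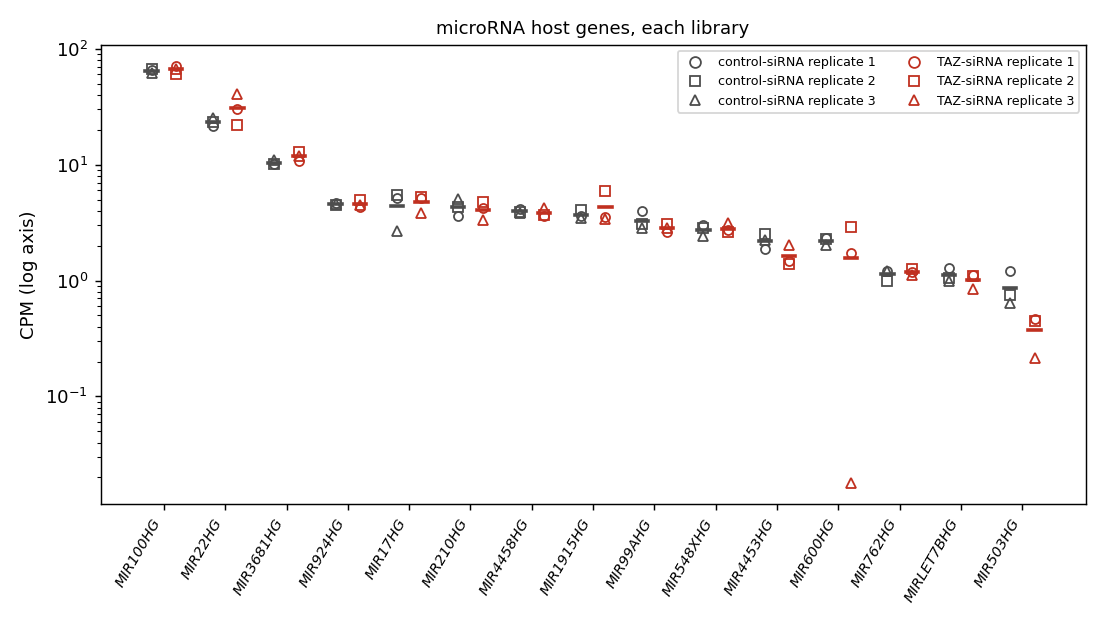
CPM of the 14 microRNA hosts with a control-siRNA mean of at least 1 CPM and of MIR503HG in each library (log axis), with short lines at the group means. The groups overlap in all of them except MIR503HG, and MIR600HG has 1 outlying library, TAZ-siRNA replicate 3, with 1 count.

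MIR99AHG, whose microRNAs share their seeds with those of MIR100HG, had 3.94, 3.09 and 2.84 CPM with control-siRNA and 2.62, 3.08 and 2.83 CPM with TAZ-siRNA (log2 change -0.22, edgeR adjusted p = 0.336). MIRLET7BHG, the third host of let-7 here, had a log2 change of -0.13 (edgeR adjusted p = 0.702). The 3 hosts with let-7 microRNAs therefore had no call between them, on either side of 0. MIR17HG, the host of the miR-17 to miR-92a cluster and a known target of MYC, had 5.11, 5.50 and 2.66 CPM against 5.17, 5.29 and 3.85 CPM, with the third library the lowest of each group. MIR4453HG had 1.87, 2.52 and 2.22 CPM against 1.48, 1.38 and 2.02 CPM. Its log2 change was -0.44 (edgeR adjusted p = 0.127), and without TAZ-siRNA replicate 3 it was -0.62 and MIR4453HG was called lower.

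MIR600HG had 154, 142 and 98 counts with control-siRNA but 127, 144 and 1 count with TAZ-siRNA. The low value in TAZ-siRNA replicate 3 was below the floor of 3 counts, and the log2 change of -0.51 had an SE of 1.03. MIR548XHG, MIR924HG, MIR210HG, MIR4458HG, MIR1915HG and MIR762HG had log2 changes of 0.03, -0.01, -0.07, -0.05, 0.20 and 0.05 and none was called. When single libraries were left out, the sign of the log2 change turned in 12 of the 21 microRNA hosts tested, MIR600HG, MIR210HG, MIR1915HG, MIR762HG, MIR17HG and MIR100HG among them, and in 0 of the 25 snoRNA hosts. Of the 36 microRNA hosts that were not tested, 21 had no count in any library, among them MIR31HG, MIR155HG, MIR200CHG and MIR205HG, and 15 had at most 16 counts in a library.

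Genes that make or use the small RNAs were then compared, beside the 10.2% of all genes tested that were lower and the 11.9% that were higher. Of 19 proteins of snoRNA particles and their assembly factors, 10 were lower and 0 higher, all 19 had a log2 change below 0, and the median was -0.22. The largest falls were those of NOP10, a core protein of H/ACA particles, with a log2 change of -0.36 ± 0.0735 (SE, edgeR adjusted p = 0.00676), and RUVBL1, an ATPase that assembles the particles, with -0.35 ± 0.0652 (SE, edgeR adjusted p = 0.0041). NOP56, a core protein of C/D particles, and DKC1, the pseudouridine synthase, fell by 0.27 and 0.25 on the log2 scale, and the methyltransferase FBL had a log2 change of -0.16 that did not pass (edgeR adjusted p = 0.105). Of 15 genes of microRNA processing and loading 14 were tested, with AGO4 higher (log2 change 0.50) and TNRC6B lower (-0.28), while DROSHA (-0.07), DGCR8 (0.15) and DICER1 (-0.01) were not called. Of 15 genes of nonsense-mediated decay and the exon junction complex only SMG5 was called (-0.24), and UPF1 had a log2 change of -0.02. Over these 3 lists 13 genes were called with all libraries, 29 without TAZ-siRNA replicate 3 and 6 to 8 without any other single library.

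Other genes that span a snoRNA or a microRNA on their own strand were set beside these hosts. Of 162 tested genes that span a snoRNA, most of them protein-coding, 34 were lower (21%) and 14 higher (8.64%), with a median log2 change of -0.11. RANBP1, a regulator of the Ran GTPase, and TIMM23B were the largest falls (-0.61 and -0.46), and PHLPP2 and AMMECR1 the largest rises (0.58 and 0.54). Of 7 tested lncRNA genes among them 3 were lower, named here after their values were seen: ZFAS1 (-0.40), DANCR (-0.41) and EPB41L4A-AS1 (-0.26). Of 695 tested genes that span a microRNA, 59 were lower (8.49%) and 121 higher (17.4%), with a median of 0.03. The largest changes in this set were those of low genes, ECM2 (-2.28) and IGF2 (-1.56) downward and GPR75-ASB3 (3.33) and SORCS2 (1.45) upward, and all were under 3 CPM in every library. Calls in these sets moved with single libraries, from 48 to 93 for the snoRNA set without TAZ-siRNA replicate 3 and to 19 to 28 without any other, and for the microRNA set from 180 to 281 without TAZ-siRNA replicate 3, to 97 and 103 without control-siRNA replicates 2 and 3, and to 99 without TAZ-siRNA replicate 1.

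Genes next to the called hosts were set beside them. Of the 16 called hosts 11 had another gene overlapping or within 1000 bases, and 12 such neighbours were tested. Of these 1 was lower and 2 were higher, against 10.2% and 11.9% of all genes, and 7 had a log2 change below 0. RCC1, which overlaps SNHG3, was lower. ZBTB37, which overlaps GAS5 on the other strand, had a log2 change of -0.31 and did not pass (edgeR adjusted p = 0.0551). DIPK1B, which overlaps SNHG7, and CYGB, which lies beside SNHG16 on the other strand, were higher (log2 changes 0.47 and 1.26). CYGB had a mean of only 0.561 CPM with control-siRNA, under the limit used here for expression. SLC3A2, on the other strand beside SNHG1, had a log2 change of -0.12 and was not called.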

How the data were processed

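Reads of stranded mRNA libraries were trimmed by the authors, aligned with HISAT2 against GRCh38 and assembled with StringTie on the reference gene models, which carry RefSeq names. For each gene and transcript, the authors deposited an estimated count, which is a whole number. For FPKM, the authors divided by the length of the transcript and the depth of the library. For TPM, the authors brought the length-corrected values of each library to the same sum. Versions of these tools, and whether counting used strand, are not given in the sources used here. The submitters' processing notes also name Bowtie 0.12.2 and the mouse build mm8 beside GRCh38, with no role given. These differ from the pipeline above, and the gene positions in the deposited tables are on GRCh38.

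Counts were tested with edgeR 4.0.16 in R 4.3.3 (TMM factors, robust quasi-likelihood fit, genes kept by filterByExpr with its minimum count at 10, two-sided, Benjamini-Hochberg). Each SE given is the size of the edgeR log2 change divided by the square root of the F statistic of its test. The biological coefficient of variation was 8.04%. Alternatives were DESeq2 1.42.0, upper-quartile factors, other filters, a block, limma 3.58.1 on deposited FPKM on a log2 scale with a pseudocount of 1 or 0.1, an adjusted p under 0.01, and leaving out each library. The test was checked on simulated counts in which the changed genes differed 2-fold. Of these genes edgeR recovered 84.7% with the replicate spread set by expression level, and 83.7% with it set gene by gene. False calls were 0 of 166 and 11 of 175. Changes smaller than 2-fold, as in most called hosts here, were not simulated. Exact permutation of 3 against 3 libraries cannot go below 0.1.

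Members and lists were chosen with earlier results of these data known. Named were all called hosts, the 5 most abundant of each class, all hosts of at least 1 CPM with control-siRNA, WWTR1, and the 2 largest called changes in each direction in each other set. Small RNAs were assigned to hosts by position and strand. GAS5 and some others hold snoRNAs whose strand is not in the tables used here, and these were assigned by position alone.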

Additional observations from a re-analysis of the deposited data

How the results depend on the processing

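The number of snoRNA hosts called stayed within 1.5 times of 15 in every alternative, from 10 to 18 when a library was left out, and 10 at an adjusted p under 0.01. Of the 16 called hosts 9 kept their call in all 14 alternatives and 0 reversed. WWTR1 ranged from -3.57 to -3.47 when a library was left out. The number of microRNA hosts called was 0 to 2 when a library was left out and 0 at an adjusted p under 0.01. Calls in the 3 lists together were 6 at an adjusted p under 0.01 and 6 to 29 when a library was left out. In the same order, calls among other microRNA hosts were 89 and 97 to 281, and among other snoRNA hosts 19 and 19 to 93. Of all genes tested 10.2% were called lower with all libraries and 16.1% without TAZ-siRNA replicate 3. This share is not given here for the other alternatives, so these counts cannot be set against it.

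Over all genes tested, deviations of same-numbered libraries from their group means correlated at -0.0173, 0.00865 and 0.0698, and those of other pairs at -0.0951 to 0.1. This does not exclude a shared effect in the snoRNA hosts, whose sum was highest in replicate 3 of both groups (1542 and 1275 CPM). Whether the replicate numbers pair the libraries is therefore not settled. With the replicate number as a block, 19 snoRNA hosts, SNHG5 (-0.22) among them, 22 genes of the 3 lists and 82 other snoRNA hosts were called. Each of these counts was above that without a block. The share of all genes called with the block is not given here, so the rise cannot be read as particular to the snoRNA hosts.

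With a library left out, the sign of 12 of 21 microRNA hosts and of 0 of 25 snoRNA hosts turned. MIR100HG ranged from -0.0085 to 0.1127, MIR548XHG from -0.0568 to 0.0914, MIR924HG from -0.0634 to 0.0261, MIR17HG from -0.1529 to 0.2817, MIR1915HG from -0.0898 to 0.3427, MIR210HG from -0.1859 to 0.0557, MIR600HG from -1.2532 (without TAZ-siRNA replicate 2) to 0.0628 (without TAZ-siRNA replicate 3), MIR762HG from -0.0405 to 0.1024 and MIRLET7BHG from -0.2012 to 0.0012. With limma on log2(FPKM + 1) and log2(FPKM + 0.1), MIR17HG was at -0.0438 and -0.0885. The causes were not tested. Most microRNA hosts had few counts, which limits the changes that could be detected.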

Other observations

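The gene table also holds rows for the small RNAs themselves, although the libraries were made from mRNA and such short RNAs are poorly captured. The 568 snoRNA rows summed to 2741 to 4327 counts per library, and the 1722 microRNA rows to 1781 to 2496. Of the snoRNA rows 89 passed the filter on low counts and 3 were lower with TAZ-siRNA, against 10.2% of all genes tested. Within the hosts described here lay 142 snoRNA rows, of which 23 were tested and 1 was lower. No value for the mature small RNAs can be read from these rows.

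The split of counts over transcripts varied more between libraries in GAS5 than in MIR100HG or MIR3681HG. The most abundant transcript of GAS5 took 10.3 to 47.1% of the counts of the gene over the 6 libraries, with 4206, 5295 and 962 counts in the control-siRNA libraries and 1182, 2664 and 3470 counts in the TAZ-siRNA libraries. The main transcript took 51.3 to 57.4% of the counts in MIR100HG and 91.4 to 94.7% in MIR3681HG. A further 9 host symbols carry a hyphen and were outside the naming rule. Of these, MIR4435-2HG was well expressed and was lower with TAZ-siRNA, with a log2 change of -0.19 (edgeR adjusted p = 0.0171).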
